A study of Rosa roxburghii with 15 samples.

Results

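The MYB3 homologs of Rosa roxburghii, the chestnut rose, are 3 unigenes, TRINITY_DN147128_c3_g4, TRINITY_DN138619_c0_g2 and TRINITY_DN143039_c2_g1, of 163 MYBs and 63727 unigenes in all. They were selected by the name of their best protein match in the study's table of MYBs, which is MYB3 of Prunus mume for DN147128_c3_g4, an isoform of MYB3 of Vitis vinifera for DN138619_c0_g2 and a MYB3-like protein of Prunus mume for DN143039_c2_g1. RNA-seq was made of 5 tissues of wild plants grown outdoors in pots, with 3 libraries each and 15 in all. The tissues were mature fruit at 120 days after flowering, young fruit at 50 days after flowering, the flower in full blossom, stem taken as new shoots, and mature leaf without petiole. Fruit was harvested in later months than flower, stem and leaf, and the fruit stages in different months, so tissue and month of harvest cannot be told apart wherever fruit is compared. The labels speak of 3 plants per replicate, so a library may hold RNA of several plants. The homologs were chosen with their FPKM by tissue already known. Their levels and differences are therefore given as a description with standard errors and no test.

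MYB proteins are transcription factors that bind DNA through repeats of a helix-turn-helix fold, and most plant MYBs carry the repeats R2 and R3. In Arabidopsis, MYB3 belongs with MYB4, MYB7 and MYB32 to a group of R2R3 MYBs that carry a repression motif and lower the expression of phenylpropanoid genes, the pathway that leads to lignin, flavonols and anthocyanins. A name taken from a best match in another species does not show that the rose gene acts in the same way. By the study's motif analysis DN138619_c0_g2 and DN143039_c2_g1 are R2R3 MYBs, whereas DN147128_c3_g4 was classed as an R1R2R3 MYB, although Arabidopsis MYB3 has the repeats R2 and R3 alone.

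DN147128_c3_g4 is the only MYB3 homolog among the genes the study assayed by qRT-PCR, and the primers of that assay are shown because they are the stretches by which this unigene can be found and measured again. They are written 5′ to 3′.
DN147128_c3_g4 sense primer: aatcacaaccaccaccaacac
DN147128_c3_g4 antisense primer: gcttcagatagacatcacattcca
The sense primer has 21 bases, 10 of them G or C, and the antisense primer has 24 bases, also with 10 G or C. The values of the qRT-PCR assay were not used here.

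The expression values are FPKM, the fragments aligned to a unigene per unit of its length and scaled to the reads aligned in the library, so levels of different unigenes can be compared. The FPKM of a library summed to between 490161 and 563597. Read counts are not used here, but the commonest ratio of low values between libraries put their relative depth, as an estimate, between 0.973 and 1.46 times that of mature fruit library 2. Mature fruit libraries 2 and 3 stand apart, with 2792 unigenes above 0 in these libraries and in no other, against 68 for mature fruit libraries 1 and 2 and 62 for libraries 1 and 3. Gene names were available only for MYBs, so tissue markers could not be checked. Among 3 MYBs that match insect proteins best, DN125764_c0_g1 stood at 0, 0.546 and 1.07 FPKM and DN133537_c0_g1 at 0, 0.149 and 0.354 FPKM in mature fruit libraries 1, 2 and 3. In all other tissues these unigenes were at 0. DN28565_c0_g1 was at 0 in mature fruit, young fruit and stem, and had 0.140, 0.0322 and 0.0320 FPKM in flower and 0.0611, 0.0794 and 0.299 FPKM in leaf. These are whole-tissue samples, in which fewer cells of a type and less RNA per cell cannot be told apart. The labels and the paper differ on the number of biological replicates, so p-values measure only the spread between these libraries, which may be partly technical.

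DN147128_c3_g4 was the most abundant MYB3 homolog, was expressed in every library, and was highest in mature fruit. It stood at 28.9, 30.6 and 32.4 FPKM in mature fruit, at 5.31, 5.18 and 5.71 FPKM in young fruit, at 13.0, 13.5 and 11.5 FPKM in flower, at 6.23, 6.13 and 6.84 FPKM in stem and at 0.775, 0.909 and 0.926 FPKM in leaf. The order was mature fruit, flower, stem, young fruit and leaf, and no tissue overlapped with its neighbour in this order. The closest neighbours were young fruit and stem, where the highest young fruit library lay at 5.71 FPKM and the lowest stem library at 6.13 FPKM. The mean was 30.7 ± 1.74 FPKM in mature fruit, against 12.7 ± 1.02 FPKM in flower as the next tissue (SD, n = 3 each), a ratio of 2.42. Mature fruit held 54.8% of the summed tissue means, and the mean in mature fruit was 35.2 times that in leaf.

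The steps between tissues were large for DN147128_c3_g4 when set against the spread of its libraries, whose SD was 5.16% to 9.54% of the mean within each tissue. On the scale of log2(FPKM + 0.1), mature fruit lay 2.48 above young fruit (SE 0.094) and 1.27 above flower (same SE). Young fruit differed from flower by -1.21 and from stem by -0.24 on this scale. Flower lay 0.97 above stem, and stem lay 2.75 above leaf. The level was thus lower in young fruit than in flower and higher again in mature fruit. The value of mature fruit library 1, in which all 3 insect-matched MYBs were at 0 and which lacks the unigenes shared by libraries 2 and 3, was 28.9 FPKM. With this library alone for mature fruit, the difference from young fruit was 2.40.

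**Figure D1:**
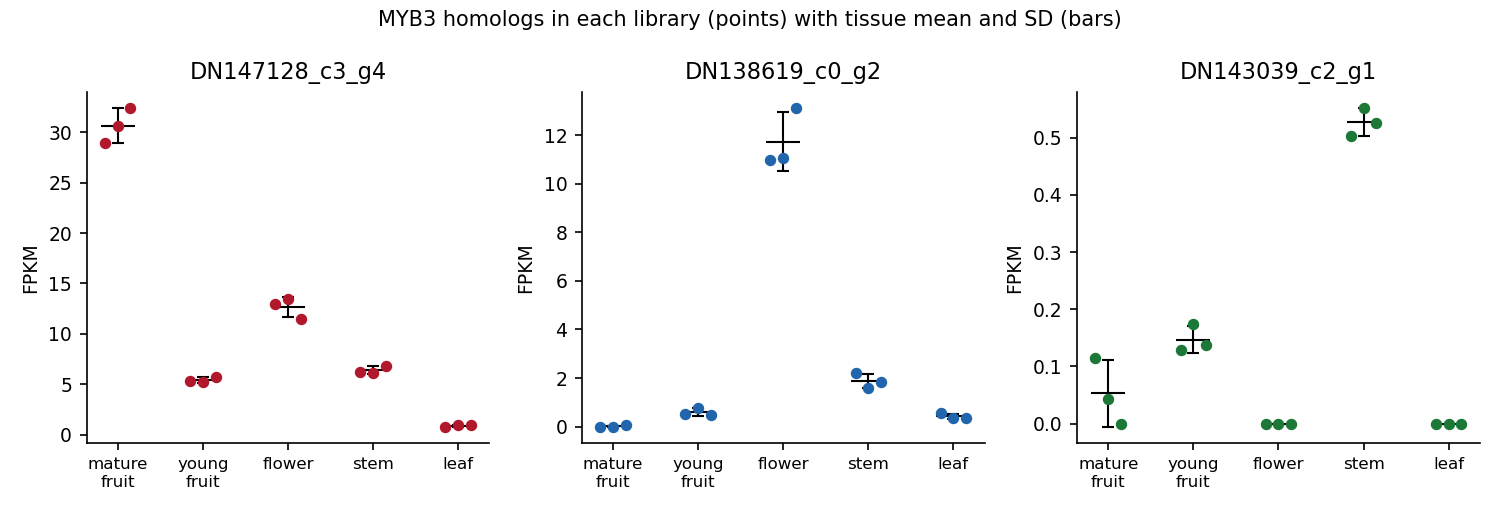
FPKM of the 3 MYB3 homologs (one panel each, with its own linear axis) in mature fruit, young fruit, flower, stem and leaf. Points are the 3 libraries of a tissue, and the black bars are the mean and SD. DN147128_c3_g4 is highest in mature fruit (30.7 FPKM), DN138619_c0_g2 in flower (11.7 FPKM) and DN143039_c2_g1 in stem (0.527 FPKM).

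DN138619_c0_g2 was a flower unigene that was nearly absent from the values of mature fruit. It was listed at 0, 0 and 0.0462 FPKM in mature fruit, and stood at 0.524, 0.775 and 0.483 FPKM in young fruit, at 11.0, 11.1 and 13.1 FPKM in flower, at 2.19, 1.60 and 1.85 FPKM in stem and at 0.542, 0.345 and 0.368 FPKM in leaf. Flower libraries lay above all others, followed by stem. Young fruit and leaf overlapped, since the lowest young fruit value of 0.483 FPKM lies below the highest leaf value of 0.542 FPKM, and all 3 mature fruit values lay below every other library. The mean was 11.7 ± 1.22 FPKM in flower, against 1.88 ± 0.293 FPKM in stem (SD, n = 3 each), a ratio of 6.23. Flower held 80.1% of the summed tissue means. Within a tissue the SD was 10.4% to 26.6% of the mean in the 4 tissues with every library above 0.

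Between pairs of tissues the differences of DN138619_c0_g2 on the log2(FPKM + 0.1) scale were 2.58 for flower minus stem (SE 0.26, also for the following values), 1.94 for stem minus leaf, and -4.11 for young fruit minus flower. For mature fruit minus young fruit the difference was -2.59. That last value depends on the pseudocount because 2 of the 3 mature fruit libraries were listed at 0, and it was -5.06 when 0.01 and -0.65 when 1 was added before taking the log. The direction was negative in each case. Between the fruit stages DN138619_c0_g2 and DN147128_c3_g4 thus lay in opposite directions, while both were lower in young fruit than in flower and higher in flower than in stem.

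DN138619_c0_g2 shares its Trinity component, a cluster of overlapping contigs, with 3 other unigenes, and all 3 are MYBs, so reads may be divided among them. None of the 3 was highest in flower. DN138619_c0_g1, named after MYB108, a stamen and stress regulator in Arabidopsis, had means of 1.22 ± 0.0729 FPKM in mature fruit, 4.46 ± 1.08 in young fruit, 3.45 ± 0.356 in flower, 1.80 ± 0.0538 in stem and 0.445 ± 0.135 in leaf (SD, n = 3 each). DN138619_c0_g3, whose best match is MYB4 of Eriobotrya japonica, had 1.45 ± 0.443 FPKM in mature fruit, 2.83 ± 0.204 in young fruit, 1.16 ± 0.242 in flower, 5.07 ± 0.0490 in stem and 5.21 ± 0.930 in leaf. Its values in mature fruit and in flower overlapped, and both lay below those in stem and in leaf. DN138619_c0_g4, whose best match is a MYB308-like protein of Malus domestica, stayed between 0 and 0.350 FPKM in all libraries.

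DN143039_c2_g1 was a low unigene seen mainly in stem. It had 0.115, 0.0433 and 0 FPKM in mature fruit, 0.128, 0.174 and 0.138 FPKM in young fruit, and 0.503, 0.552 and 0.526 FPKM in stem, and it was listed at 0 in all 3 flower and all 3 leaf libraries. Stem lay above young fruit without overlap, with means of 0.527 ± 0.0243 FPKM in stem and 0.147 ± 0.0241 FPKM in young fruit (SD, n = 3 each), a ratio of 3.59. Mature fruit lay below young fruit, but the highest mature fruit value of 0.115 FPKM was close to the lowest young fruit value of 0.128 FPKM. The difference between mature and young fruit was -0.76 on the log2(FPKM + 0.1) scale (SE 0.23). That SE pools the spread of all tissues, including flower and leaf, where every value is 0. It therefore understates the spread of the fruit libraries, whose pooled SD within a stage was 0.40 on this scale. The difference was -1.04 without mature fruit library 1, -0.49 without mature fruit library 3 and -0.19 with mature fruit library 1 alone. No difference is given against flower or leaf, where every library is at 0.

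The values of DN143039_c2_g1 lay close to whole steps. Once scaled for the relative depth of the libraries, its 7 other values above 0 were 2.98 to 17.0 times its lowest value, that of mature fruit library 2, and each lay within 0.0833 of a whole number. The same reading did not give whole steps for DN138619_c0_g2, whose values lay up to 0.401 from a whole multiple of its lowest value. If the lowest value of DN143039_c2_g1 stands for 1 fragment, the fragments would be 3, 1 and 0 in mature fruit, 3, 4 and 4 in young fruit and 17, 15 and 12 in stem. The relative depth of the stem libraries was 1.46, 1.18 and 0.986 times that of mature fruit library 2. On this reading each fruit value would rest on at most 4 fragments.

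**Figure D2:**
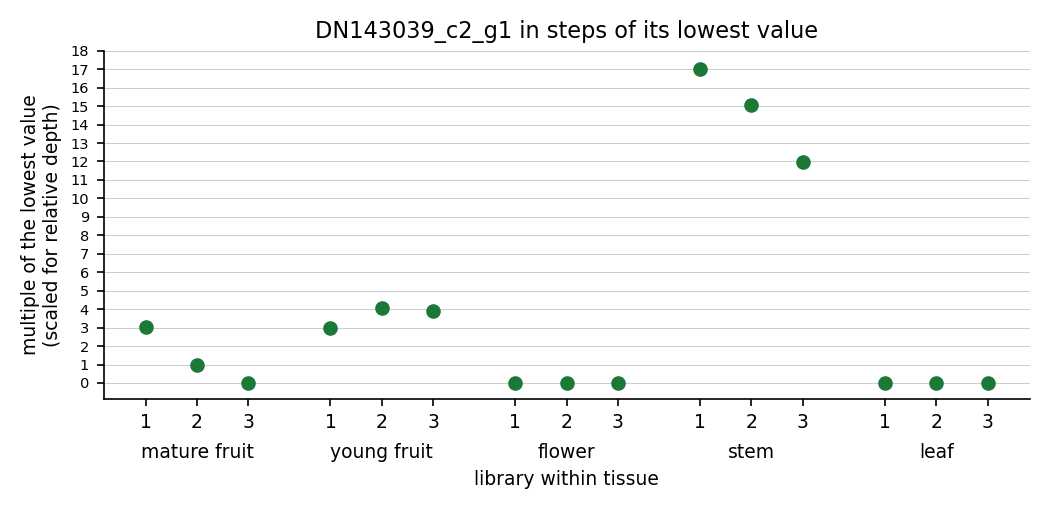
FPKM of DN143039_c2_g1 in each of the 15 libraries, divided by its lowest value (mature fruit library 2) after scaling for relative depth. Horizontal lines mark whole multiples. Values lie at about 17, 15 and 12 in stem, at 3 or 4 in young fruit, at 3, 1 and 0 in mature fruit and at 0 in flower and leaf.

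Taken as a group the MYB3 homologs were highest in mature fruit, where nearly all of the sum was DN147128_c3_g4, and next in flower, where DN147128_c3_g4 and DN138619_c0_g2 both contributed. Their summed level was 29.0, 30.7 and 32.5 FPKM in mature fruit, 5.96, 6.13 and 6.33 FPKM in young fruit, 24.0, 24.5 and 24.6 FPKM in flower, 8.92, 8.29 and 9.22 FPKM in stem, and 1.32, 1.25 and 1.29 FPKM in leaf. No tissues overlapped in this sum. DN147128_c3_g4 made up 99.8% ± 0.148 of the sum in mature fruit, 87.9% ± 3.0 in young fruit, 51.9% ± 4.54 in flower, 72.7% ± 2.47 in stem and 67.6% ± 7.64 in leaf (SD, n = 3 each). DN138619_c0_g2 contributed 48.1% ± 4.54 in flower and 32.4% ± 7.64 in leaf, and DN143039_c2_g1 at most 6.66% in any library.

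The ratio of DN147128_c3_g4 to DN138619_c0_g2 within a library separates the tissues further. It was 10.1, 6.68 and 11.8 in young fruit, 1.19, 1.21 and 0.876 in flower, 2.85, 3.82 and 3.69 in stem and 1.43, 2.64 and 2.52 in leaf. Flower was the only tissue in which the unigenes were at about the same level, and flower library 3 the only library in which DN138619_c0_g2 exceeded DN147128_c3_g4. For mature fruit no ratio is given, as DN138619_c0_g2 was at 0 in 2 libraries. Over the 15 libraries Pearson's r of log2(FPKM + 0.1) was -0.044 between DN147128_c3_g4 and DN138619_c0_g2, 0.079 between DN147128_c3_g4 and DN143039_c2_g1 and 0.018 between DN138619_c0_g2 and DN143039_c2_g1. These libraries are 5 tissues of 3 libraries each, and the values are descriptions only.

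**Figure D3:**
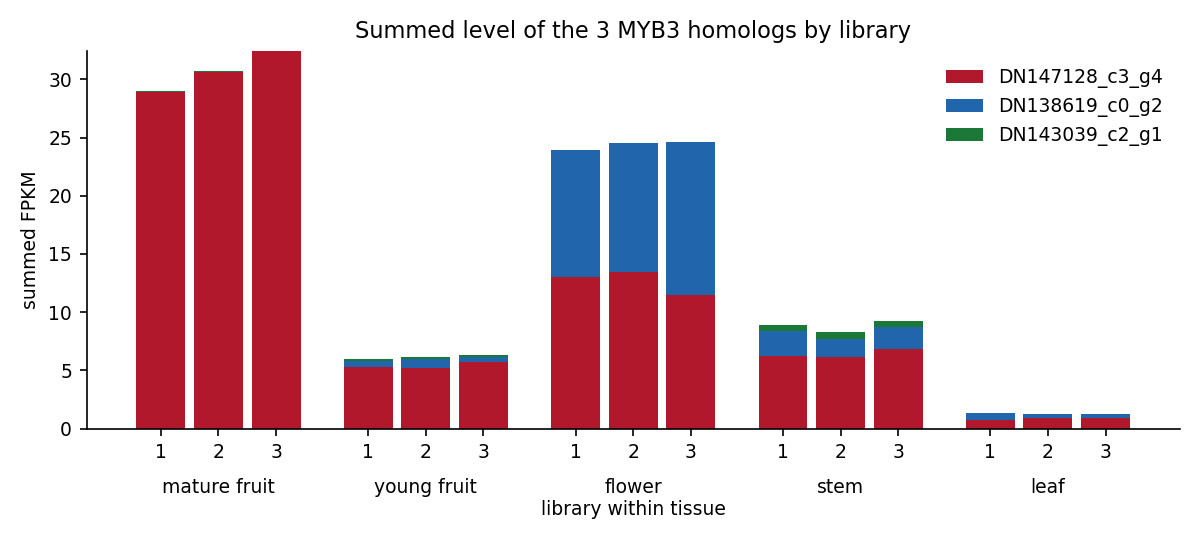
Summed FPKM of the 3 MYB3 homologs in each of the 15 libraries, stacked by unigene, on a linear axis from 0. In mature fruit nearly all of the 29.0 to 32.5 FPKM is DN147128_c3_g4, whereas the 24.0 to 24.6 FPKM of flower is divided about evenly between DN147128_c3_g4 and DN138619_c0_g2.

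Among all 163 MYBs ordered by mean FPKM, DN147128_c3_g4 took rank 7 in mature fruit, rank 47 in young fruit, rank 30 in flower, rank 55 in stem and rank 83 in leaf. In mature fruit it lay above 93.7% of the 51175 unigenes that passed the filter on low values, and in leaf above 56.4% of them. DN138619_c0_g2 took rank 32 in flower and rank 124 in mature fruit. DN143039_c2_g1 reached its best rank, 109, in stem. The MYB3 homologs together accounted for 4.02% ± 0.279 of the summed FPKM of the MYBs in mature fruit, 0.490% ± 0.00914 in young fruit, 1.42% ± 0.0196 in flower, 0.583% ± 0.0295 in stem and 0.0982% ± 0.00150 in leaf (SD, n = 3 each).

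The MYBs most like each homolog were found by the root mean square difference of the 5 tissue means of log2(FPKM + 0.1), each profile centred on its own mean. For DN147128_c3_g4 the nearest of the 141 other MYBs that passed the filter was DN146048_c0_g2, a match of MYB1 of Prunus persica, at a difference of 0.75, and 140 unigenes of any kind were nearer. DN146048_c0_g2 had 14.4 ± 1.40 FPKM in mature fruit, 7.80 ± 1.06 in young fruit, 8.41 ± 1.19 in flower, 9.02 ± 0.123 in stem and 1.71 ± 0.145 in leaf (SD, n = 3 each), a flatter profile with the same ends. DN128191_c0_g1, a MYB-like protein J, and the MYB6-like repressor homolog DN144339_c1_g4 came next, both at 1.08. The median over the 141 MYBs was 2.01.

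For DN138619_c0_g2 the nearest was DN149070_c1_g2, a homolog of MYB10, which activates anthocyanin genes in fruits of the rose family, at 0.49, and no more than 3 unigenes of any kind were nearer. DN149070_c1_g2 was listed at 0 in mature fruit and had 0.139 ± 0.0463 FPKM in young fruit, 4.16 ± 0.594 in flower, 0.816 ± 0.478 in stem and 0.147 ± 0.0548 in leaf. DN70434_c0_g1, a MYB-like protein Q, followed at 0.53 and DN58257_c0_g1, another MYB-like protein J, at 0.95. For DN143039_c2_g1 the nearest were DN145308_c5_g1, a homolog of the flavonol activator MYB111, at 0.24, DN124843_c0_g1 (MYB28-like) at 0.30 and DN267156_c0_g1 (MYB39) at 0.41. The libraries of DN145308_c5_g1 varied widely, with means of 0.373 ± 0.645 FPKM in young fruit and 1.49 ± 1.90 FPKM in stem, and 0 in mature fruit, flower and leaf. At such low values many profiles are alike, and 715 unigenes lay within 0.5 of DN143039_c2_g1, against 19 for DN147128_c3_g4 and 4 for DN138619_c0_g2. The homologs were farther from each other than from these MYBs, at 2.82 between DN147128_c3_g4 and DN138619_c0_g2, 1.85 between DN147128_c3_g4 and DN143039_c2_g1 and 2.41 between DN138619_c0_g2 and DN143039_c2_g1.

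**Figure D4:**
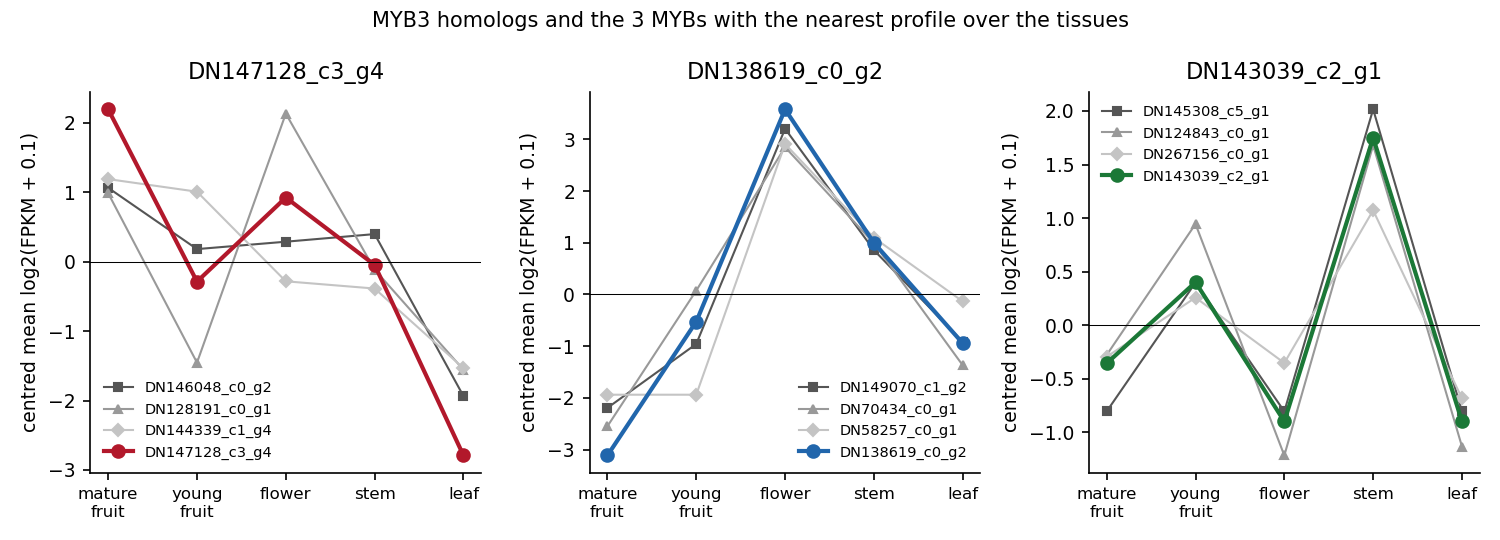
Tissue means of log2(FPKM + 0.1), centred on the mean over the 5 tissues, for each MYB3 homolog (coloured, circles) and the 3 MYBs with the smallest root mean square difference from it (grey). The lines join tissues for reading only. The nearest neighbours differ by 0.75 for DN147128_c3_g4, 0.49 for DN138619_c0_g2 and 0.24 for DN143039_c2_g1.

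The MYB3 homologs were then set beside 21 other unigenes named after repressors of the same kind, namely MYB4, MYB6, MYB7, MYB308 and MYB330. MYB308 and MYB330 are repressors of phenolic metabolism known from Antirrhinum. Of the 21, 17 passed the filter of more than 0.1 FPKM in at least 3 libraries. Among them are DN138619_c0_g3 and DN138619_c0_g4, which share the Trinity component of DN138619_c0_g2, so reads may be divided between these unigenes. The 24 unigenes including the MYB3 homologs summed to 215 ± 25.5 FPKM in mature fruit, 186 ± 9.80 in young fruit, 111 ± 2.99 in flower, 153 ± 6.24 in stem and 130 ± 3.83 in leaf (SD, n = 3 each). The MYB3 homologs accounted for 14.3% ± 1.20 of this sum in mature fruit, 3.31% ± 0.215 in young fruit, 22.0% ± 0.750 in flower, 5.75% ± 0.522 in stem and 0.992% ± 0.0343 in leaf. DN147128_c3_g4 had rank 4 of the 24 in mature fruit and also in flower, where DN138619_c0_g2 had rank 5. The 4 most abundant of the others were DN136168_c0_g1 (MYB308), at 59.4 ± 1.83 FPKM in leaf, DN142862_c0_g1 (MYB4), at 84.3 ± 17.6 FPKM in mature fruit, DN144022_c3_g4 (MYB308), at 51.0 ± 2.01 FPKM in young fruit, and DN144339_c1_g4 (MYB6-like), at 31.2 ± 1.40 FPKM in mature fruit.

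Repressor homologs were tested between successive tissues with limma on log2(FPKM + 0.1), over all 51175 unigenes. A unigene was called where its adjusted p did not exceed 0.01 and the size of its log2 fold change reached 1. The list was chosen with earlier results of these data known, so the p-values are not those of a list fixed beforehand. Between mature and young fruit 1 of the 17 rose and 5 fell, where 8.06% of all unigenes tested were higher and 22.1% lower. The background of 11316 lower unigenes depends on the filter, and was 6263 to 6466 with any 1 young fruit library left out. The one that rose was DN142862_c0_g1 (MYB4), by 1.65 on the log2 scale (SE 0.20, limma adjusted p = 1.35e-05). The largest fall was that of DN144669_c3_g3 (MYB330), with means of 0.111 ± 0.0754 FPKM in mature fruit and 4.64 ± 0.694 FPKM in young fruit (SD, n = 3 each), a log2 fold change of -4.55 (SE 0.25) with a limma adjusted p of 7.46e-09. The difference of 2.48 found for DN147128_c3_g4 lay above those of all 17, which ran from -4.55 to 1.65 with a median of -0.54, and the median of all unigenes tested was -0.12.

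Between young fruit and flower 7 of the 17 rose and 3 fell, where 22.7% of all unigenes were higher and 16.3% lower in young fruit. Here the higher unigenes numbered 11613 and the lower 8330. With any 1 young fruit library left out there were 6615 to 6689 higher and 7487 to 8004 lower, so the balance depends on the filter. The median was 0.80, against 0 over all unigenes. DN142862_c0_g1 was again the highest, at 6.0, and DN146459_c0_g1 (MYB330) the lowest, at -5.22. DN147128_c3_g4 and DN138619_c0_g2, with -1.21 and -4.11, lay on the side of the 3 that fell.

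Between flower and stem 2 of the 17 rose and 9 fell, where 10.1% of all unigenes were higher and 8.94% lower in flower, with a median of -1.25 for the 17 and of 0 for all unigenes. The 2 that rose were DN147056_c0_g1 (MYB4), by 1.49, and DN148048_c1_g1 (MYB7), by 1.04 (limma adjusted p = 0.00879). DN148048_c1_g1 was chosen after its value was seen, and its call was lost when any single library other than flower 1 or stem 1 was left out, which left 1 riser. The largest fall was that of DN121791_c0_g1 (MYB4-like), which was listed at 0 in flower and stood at 1.19 ± 0.138 FPKM in stem. It was also at 0 in mature fruit and leaf and at most 0.103 FPKM in young fruit. It thus passed the filter only through its stem libraries, which nearly fixed the direction of its difference in advance. The value of 2.58 for DN138619_c0_g2 lay above that of every repressor homolog tested. Its component mate DN138619_c0_g3 is among those that fell, at -2.05, and the values of these unigenes may not be independent.

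Between stem and leaf 8 of the 17 rose and 2 fell, where 14.1% of all unigenes were higher and 9.75% lower in stem. The median was 0.71, against 0.05 over all unigenes. DN144669_c3_g3 (MYB330) had the largest rise, 3.75, and DN146459_c0_g1 (MYB330) the largest fall, -1.45. The 8 risers include DN121791_c0_g1, which passed the filter only through stem. The differences of DN147128_c3_g4 and DN138619_c0_g2, 2.75 and 1.94, lay within this range and on the side of the risers. These comparisons share libraries, since young fruit, flower and stem each enter more than 1 of them.

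**Figure D5:**
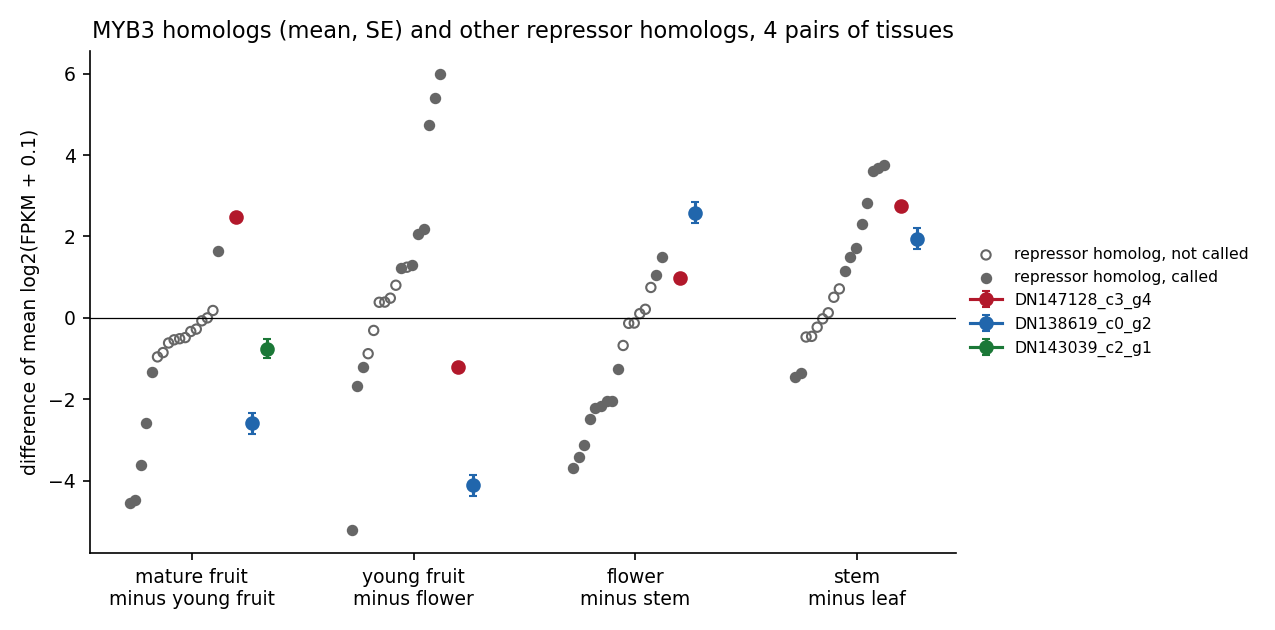
Difference of mean log2(FPKM + 0.1) between successive tissues for the 3 MYB3 homologs (coloured points with SE, not tested) and the 17 other repressor homologs tested (grey, filled where called with limma). In mature minus young fruit DN147128_c3_g4 lies above all 17 at 2.48, and in flower minus stem DN138619_c0_g2 does so at 2.58. DN143039_c2_g1 is drawn only for the fruit stages, since it is at 0 in flower and leaf.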

How the data were processed

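Reads were trimmed by the authors, assembled de novo with Trinity and aligned back to the unigenes with Bowtie2, and RSEM gave the abundance. The submitters' processing notes also list Trimmomatic; for these tools a version is not given in the sources used here. The deposited values are FPKM, 1 per unigene and library, for 63727 unigenes. Counts are not analysed here, so no counting interval is given.

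The tissue label of each library set its group. A pseudocount of 0.1 was added, log2 was taken, and limma 3.58.1 (R 4.3.3) was fitted to all 15 libraries, with 1 mean for each tissue and a trended prior variance. Fold changes on this scale understate the change of low unigenes. The SE of each difference rests on the spread pooled over all tissues. Testing took in the 51175 unigenes with over 0.1 FPKM in 3 or more libraries, with Benjamini-Hochberg adjustment within each pair of tissues. All 3 MYB3 homologs passed that filter, DN143039_c2_g1 in 7 libraries. The 4 pairs compared join neighbours in the order mature fruit, young fruit, flower, stem and leaf. Flower, stem and leaf were collected at the same time, so their pairs are not steps in time. The script was tested on simulated data. Summaries used Python 3.11.15 with numpy 2.4.6 and pandas 2.3.3, and matplotlib 3.10.9 drew the figures.

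Names come from the study's table of MYBs, whose FPKM columns were not used. The homologs, the repressor list and the settings were chosen with earlier results of these data known. Named are the 3 homologs, the MYBs of their components, the 3 MYBs with the nearest profile, the 4 most abundant repressor homologs and, per pair, the called ones with the largest and smallest fold change. Of the 3 insect matches none passed the filter. Alternatives were other pseudocounts, filters, scaling, thresholds and trend, a replicate block, fits of 6 libraries, and libraries left out. Genome positions and unigene sequences are not analysed here.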

Additional observations from a re-analysis of the deposited data

How the results depend on the processing

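No difference of a MYB3 homolog changed direction under the alternatives run. With 1 library left out, DN147128_c3_g4 ranged from 2.44 to 2.52 for mature minus young fruit and from 0.93 to 1.04 for flower minus stem, DN138619_c0_g2 from -2.77 to -2.41 and from 2.48 to 2.69, and DN143039_c2_g1 from -1.04 to -0.49 between the fruit stages. Leaving out a library of a tissue outside the pair cannot move these values. With a pseudocount of 1, the differences of DN147128_c3_g4 were 2.31 for mature minus young fruit, -1.09 for young fruit minus flower and 1.98 for stem minus leaf, and those of DN138619_c0_g2 were -0.65, -3.0 and 1.02, with 2.14 for flower minus stem, while DN143039_c2_g1 had -0.12 between the fruit stages. With a pseudocount of 0.01, DN147128_c3_g4 had 2.87 for stem minus leaf, DN138619_c0_g2 -5.06 and DN143039_c2_g1 -1.94 for mature minus young fruit. Low values set these changes by the construction of the scale. Median-of-ratios scaling gave -1.07, 0.86 and 2.54 for DN147128_c3_g4 in young fruit minus flower, flower minus stem and stem minus leaf. The median of all unigenes moved by at most 0.09, but ties at 0 can hold it, so it does not measure the shift. Calls over all unigenes changed to 6175 higher and 5997 lower in stem minus leaf, from 7241 and 4990. In flower minus stem they were 4647 and 4942, from 5146 and 4573. Without both mature fruit libraries 2 and 3, DN147128_c3_g4 had 2.40 and DN143039_c2_g1 -0.19 between the fruit stages.

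The repressor homologs higher in flower than in stem numbered 1 in place of 2 with a pseudocount of 0.01 or 1, with median-of-ratios scaling, with at least 1 FPKM required in at least 3 libraries, with only the 6 libraries compared and without both mature fruit libraries 2 and 3, and from 1 to 2 with a library left out. Those lower in stem than in leaf numbered 1 with a pseudocount of 0.01, and those lower in mature than in young fruit 8 at a log2 fold change of at least 0.5. With the replicate number as a block (replicate block) the count for flower over stem was also 1, and no other count of repressor homologs moved by over 1.5 times. Same-numbered libraries of different tissues had correlations of their deviations between -0.042 and 0.061 over 30 pairs. No library correlated best with its own number in all other tissues. These values do not show whether same-numbered libraries came from the same plants. Over all unigenes, a pseudocount of 1 gave 2495 higher and 4393 lower in place of 4127 and 11316 for mature minus young fruit, 4480 and 4770 in place of 11613 and 8330 for young fruit minus flower, 2597 and 2868 in place of 5146 and 4573 for flower minus stem, and 4555 and 2847 in place of 7241 and 4990 for stem minus leaf. With at least 1 FPKM required, and so fewer unigenes tested, 5501 were lower in mature than in young fruit, 4992 higher in young fruit than in flower, 3181 higher in flower than in stem and 3316 lower in stem than in leaf.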

Other observations

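DN147128_c3_g4 belongs to a Trinity cluster with 10 other unigenes, 8 of them in the same component and none in the table of MYBs, and the sources used here do not pair these with gene names. Of the 10, 4 were also highest in mature fruit. The nearest in profile, DN147128_c2_g2, differed by a root mean square of 1.17 on the log2 scale and had 70.6 ± 15.6 FPKM in mature fruit, 49.0 ± 10.9 in young fruit, 50.1 ± 0.989 in flower, 37.7 ± 2.62 in stem and 24.2 ± 2.18 in leaf (SD, n = 3 each). DN147128_c3_g7, of the same component, had 4.05 ± 0.140 FPKM in mature fruit, 4.98 ± 1.39 in young fruit, 18.8 ± 3.45 in flower, 22.8 ± 6.31 in stem and 3.17 ± 0.511 in leaf. Among the 5 cluster mates of DN143039_c2_g1 none was highest in stem and 1 was listed at 0 in every library.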
